A study of Mus musculus with 14 samples.

Results

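Complement receptors and membrane regulators are the cell-surface proteins through which cells read complement activation or shield themselves from it. The 10 genes described here were *C3ar1*, *C5ar1*, *C5ar2*, *Itgam*, *Itgax*, *Itgb2*, *Cr1l*, *Cd59a*, *Cd55*, and *Cd46*, chosen by name as the entries whose gene symbol equals one of these, and all 10 were found among the 21878 genes measured in every mouse. Kidney RNA was sequenced from 14 male C57BL/6J mice, each a separate animal, to ask how loss of complement factor B, the protease precursor of the alternative pathway, alters the diabetic kidney. The 4 WT diabetic mice and 4 Cfb-/- diabetic mice had received a diet with 60% of calories from fat for 4 weeks from 8 weeks of age and then STZ, a toxin of the insulin-producing beta cells, at 60 mg/kg on 5 days in 50 mM citrate. The 3 WT control mice and 3 Cfb-/- control mice had received chow with 10% of calories from fat and citrate alone. Diet and STZ thus differed together, so their parts cannot be told apart, and diabetes below stands for both. Mice were killed 21 weeks after STZ by the study's methods. The labels give 34 weeks without a starting point, which need not conflict with those methods. The deletion of *Cfb* is constitutive, so the gene is disrupted in all cells of the animal, although the labels call it a knockdown. The labels also give the control mice the treatment text of the diabetic mice, and their diet and disease entries name chow and healthy animals.

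The values were read as FPKM, fragments of a gene scaled to transcript length and to the size of the library, so levels of different genes can be set side by side. *Cfb* itself ranged over 62.2 to 131 FPKM among WT controls and 56.7 to 81.9 among WT diabetic animals. The deleted animals held 2.05 to 2.22 FPKM as controls and 1.13 to 1.43 when diabetic, so the gene matched the genotype label in all 14 mice. Markers of proximal tubule (*Slc34a1*), loop of Henle (*Umod*), and collecting duct (*Aqp2*) were detected in every mouse. The sum of FPKM per mouse ranged from 330246 to 488196, so comparisons between mice depend on the scaling, and other scalings are given below. How many reads lie behind each library is unknown, so no counting error can be attached to the lowest values.

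Complement is a cascade of plasma proteins in which C3 and then C5 are cleaved. The small fragments C3a and C5a act on G protein-coupled receptors, *C3ar1* for C3a and *C5ar1* for C5a, which are best known on myeloid cells such as macrophages and neutrophils, while *C5ar2* binds C5a and couples poorly to G proteins. The large C3 fragments stay on surfaces and are held by the integrin complement receptors, CR3 (*Itgam* with *Itgb2*, also known as CD11b and CD18) and CR4 (*Itgax*, CD11c, with *Itgb2*). Host cells limit the cascade with membrane regulators. *Cd55* (decay-accelerating factor) and *Cr1l* (Crry, the rodent regulator of the C3 step on most cells) act on the C3 convertases, *Cd46* is a cofactor for the cleavage of C3b that is mostly restricted to testis in rodents, and *Cd59a* blocks assembly of the membrane attack complex.

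The members lie in a few places in the genome (RefSeq, GRCm38.p6). *C5ar1* (chr7:16246743-16259540) and *C5ar2* (chr7:16234587-16244154) are neighbours with 2588 bases between them. *Itgam* (chr7:128062640-128118491) and *Itgax* (chr7:128129526-128150657) stand in a row on the plus strand with 11034 bases between them. *Cd46* (chr1:195038971-195098784) and *Cr1l* (chr1:195098711-195131570) share 74 bases at their ends, both on the minus strand, so fragments in that stretch cannot be assigned by strand. *Cd55* lies at chr1:130429798-130465009, *C3ar1* at chr6:122847140-122856157, *Cd59a* at chr2:104095753-104115410, and *Itgb2* at chr10:77530329-77565708. *Cd55* and *Cd59a* have close copies, *Cd55b* and *Cd59b*, with which reads could be shared. *Cd55b* was at 0 in all 14 mice and *Cd59b* ranged from 0.180 to 0.523 FPKM.

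Promoter windows from RefSeq (GRCm38.p6) were matched by gene ID for 9 of the 10 members. For *C5ar2* there were 2 windows, and only that adjoining the annotated gene is shown and counted. Shown are the 250 bases before the start site for a receptor that differed strongly with diabetes (*C3ar1*), the receptor with the lowest level (*C5ar2*), an integrin chain (*Itgam*), and the most abundant member, which did not pass the test (*Cr1l*). They are written 5′ to 3′ on the strand of the gene. Capitals mark GGAAGT or GAGGAA on either strand (reverse complements ACTTCC and TTCCTC), purine-rich letters of the kind that ETS factors such as PU.1 bind, which were picked after the values had been seen.
C3ar1, chr6:122856158-122856407, minus strand: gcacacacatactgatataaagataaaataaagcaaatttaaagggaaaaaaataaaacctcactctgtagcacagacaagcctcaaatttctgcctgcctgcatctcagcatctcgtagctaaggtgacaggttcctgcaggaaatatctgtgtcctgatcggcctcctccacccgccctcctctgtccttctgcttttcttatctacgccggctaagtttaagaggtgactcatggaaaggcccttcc
C5ar2, chr7:16244155-16244404, minus strand: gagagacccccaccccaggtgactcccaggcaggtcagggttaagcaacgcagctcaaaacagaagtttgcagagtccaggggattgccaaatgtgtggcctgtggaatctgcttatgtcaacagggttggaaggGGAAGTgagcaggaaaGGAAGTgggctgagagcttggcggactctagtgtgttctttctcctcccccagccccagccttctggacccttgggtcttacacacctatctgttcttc
Itgam, chr7:128062390-128062639, plus strand: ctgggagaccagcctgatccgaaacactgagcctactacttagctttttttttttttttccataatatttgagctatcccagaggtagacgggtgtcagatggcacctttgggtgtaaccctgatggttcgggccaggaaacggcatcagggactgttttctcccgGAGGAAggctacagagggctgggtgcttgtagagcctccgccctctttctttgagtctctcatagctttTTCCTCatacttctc
Cr1l, chr1:195131571-195131820, minus strand: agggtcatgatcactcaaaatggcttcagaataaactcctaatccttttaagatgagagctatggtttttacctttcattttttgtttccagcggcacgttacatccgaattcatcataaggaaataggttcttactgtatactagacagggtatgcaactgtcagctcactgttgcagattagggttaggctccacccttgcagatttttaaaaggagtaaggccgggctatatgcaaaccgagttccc

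GGAAGT occurred in the windows of 3 of the 9 matched members, *C5ar1*, *C5ar2*, and *Itgax*, with 2 matches in each, against 19.7% of all 32851 windows of the same 250 bases. In *C5ar2* both matches lie on the strand of the gene, with first bases 115 and 99 bases before the start. GAGGAA occurred in 2 of the 9, *Itgam* with 2 matches and *Cd59a* with 1, against 23.3% of all windows, and in *Itgam* the matches begin 84 and 15 bases before the start, the nearer one on the opposite strand. The windows of *C3ar1* and *Cr1l* hold neither. These are matches of letters, and no binding was measured.

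In control kidneys the regulators were the abundant members and the receptors were scarce. *Cr1l* had the highest level in every group, with a mean of 22.4 ± 2.74 FPKM (SD, n = 3) in WT control mice and 21.3 ± 2.80 (SD, n = 3) in Cfb-/- control mice. *Cd59a* followed with 9.95 ± 1.08 FPKM (SD, n = 3) and 11.03 ± 2.79 (SD, n = 3), and the ranges of *Cr1l* and *Cd59a* did not touch in any group. All other members had group means under 2 FPKM in control mice. In WT control mice *Itgb2* came next with a mean of 1.74 FPKM, separate from *Cd55* at 1.06. The ranges of *Cd55* and *Itgax* (0.906) overlapped, and so did those of *C3ar1* (0.466), *C5ar1* (0.419), *Itgam* (0.292), and *Cd46* (0.260) taken as neighbours in the order. *C5ar2*, at a mean of 0.0563 FPKM, lay below all others.

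The order was rearranged in the diabetic kidney. *Cr1l* and *Cd59a* remained at the top, with respective means in WT diabetic mice of 23.8 ± 1.05 and 17.1 ± 3.43 FPKM (SD, n = 4), and their ranges were still separate. *Itgb2* (5.48), *C3ar1* (3.38), *Itgax* (2.69), *C5ar1* (2.32), *Cd55* (1.82), and *Itgam* (1.53) followed in WT diabetic mice with each overlapping the next. *Cd46* (0.308) and *C5ar2* (0.254) were lowest and overlapped each other. The order of means was the same in Cfb-/- diabetic mice.

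**Figure D1:**
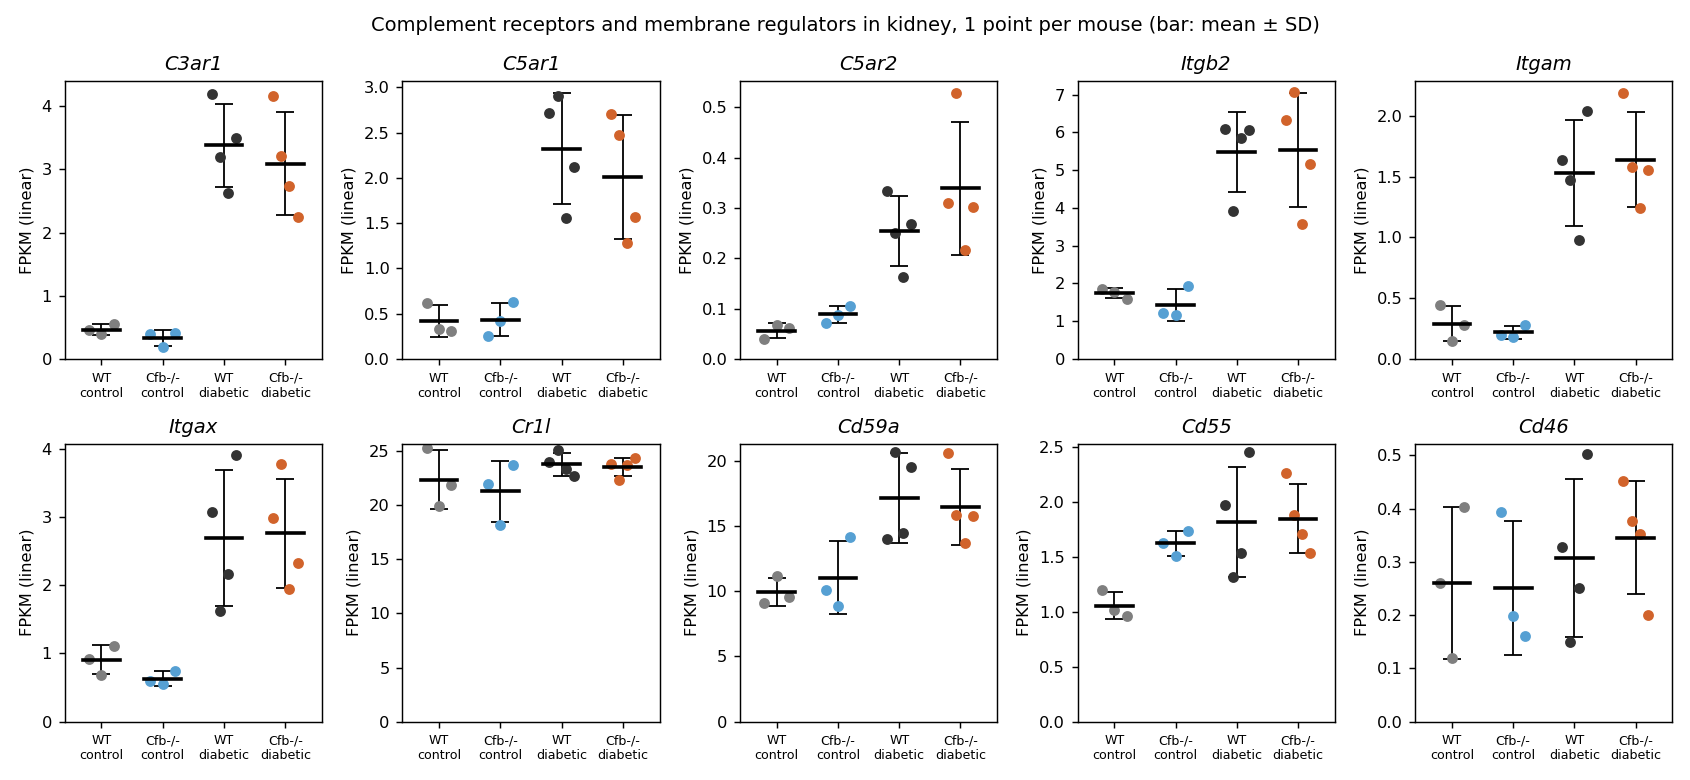
FPKM on linear axes from 0 for each of the 10 genes in each mouse, by group, with the mean and SD as black bars (3 control and 4 diabetic mice per genotype). The points of diabetic mice lie above those of control mice for *C3ar1*, *C5ar1*, *C5ar2*, *Itgb2*, *Itgam*, and *Itgax* in both genotypes, whereas those of *Cr1l* and *Cd46* overlap.

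Diabetes was accompanied by higher levels of all 3 anaphylatoxin receptors and all 3 integrin chains in both genotypes. The ratio of mean FPKM in diabetic over control mice lay between 2.97 (*Itgax*) and 7.25 (*C3ar1*) in WT mice and between 3.83 (*C5ar2*) and 9.26 (*C3ar1*) in Cfb-/- mice. The regulators were less uniform, with *Cd59a* higher in both genotypes, *Cd55* higher in WT mice, and *Cr1l* and *Cd46* not passing the test. In all, 8 of the 10 members passed an adjusted p under 0.05 as higher in WT diabetic mice and 0 as lower, beside 36.2% of the 14912 genes tested that were called higher (9.97% lower and 46.1% in either direction). In Cfb-/- mice 7 of the 10 were called higher and 0 lower, beside 27.4% of all genes (6.40% lower and 33.8% in either direction). The test was limma on log2(FPKM + 0.1) with Benjamini-Hochberg adjustment over all genes tested, and fold changes below are on that scale, which understates the change of genes near 0.1 FPKM. The study's cut-offs, a raw p under 0.05 with a ratio above 2 or below 0.5, were also applied to these limma values. The study itself used a count test. At these cut-offs 6 members were called higher in WT mice (15.6% of all genes) and 6 in Cfb-/- mice (13.3%). Groups did not overlap for 8 members in WT mice (35.5% of all genes) and 6 in Cfb-/- mice (33.6%).

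Taken over the 10 members, log2 fold changes had a median of 1.29 in WT and 1.52 in Cfb-/- mice, where all genes tested had 0.29 and 0.22. The median of all genes was thus shifted upward in diabetic mice as deposited. Scaling by median ratios or by quantiles brought it to between -0.05 and 0.03. Relative to the median of all genes, the 6 receptor genes differed by 0.88 (*C5ar2*) to 2.32 (*C3ar1*) in WT mice and by 0.96 to 2.67 in Cfb-/- mice, for the same genes, on the log2 scale. In the same terms *Cr1l* stood at -0.19 in WT and -0.07 in Cfb-/- mice. Because whole tissue was sequenced, more cells of a type and more RNA per cell cannot be told apart.

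**Figure D2:**
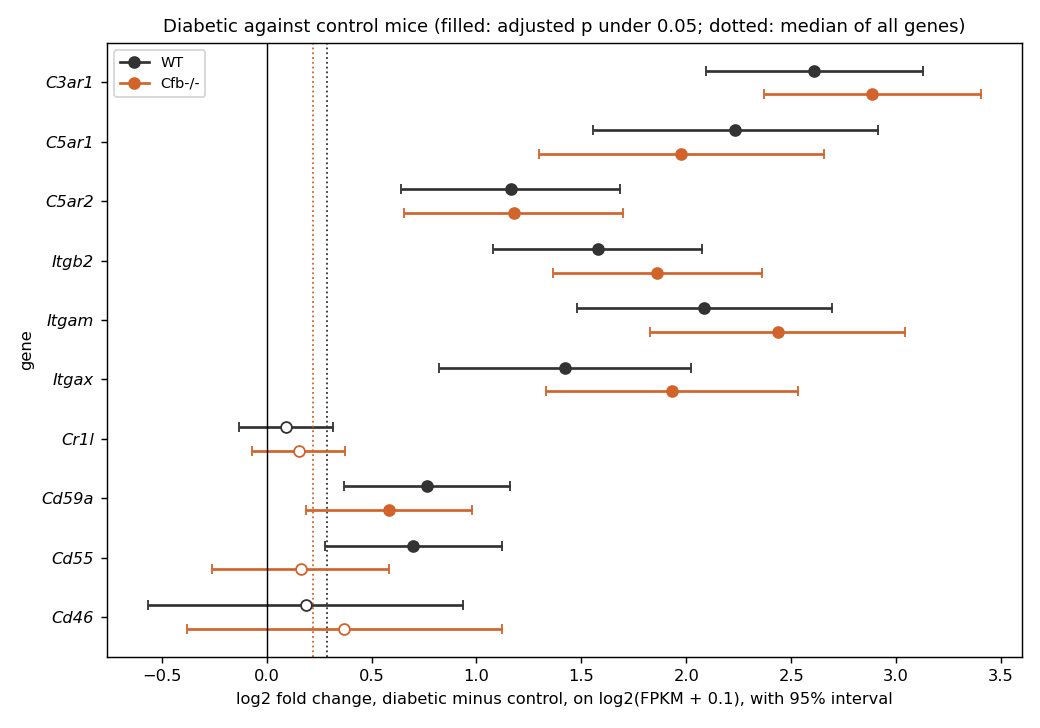
Log2 fold change of diabetic over control mice with its 95% interval for the 10 genes in WT (black) and Cfb-/- (orange) mice, with filled points at an adjusted p under 0.05 and dotted lines at the median of all genes (0.29 and 0.22). The 6 receptor genes lie right of both lines with log2 fold changes of 1.16 to 2.89, and *Cr1l*, *Cd46*, and, in Cfb-/- mice, *Cd55* have intervals that include 0.

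*C3ar1*, the receptor for C3a, showed the greatest fold change of the 10 in both genotypes. Its level was 0.455, 0.390, and 0.553 FPKM in the 3 WT control mice and 4.19, 3.20, 2.63, and 3.49 in the 4 WT diabetic mice. In Cfb-/- mice it was 0.396, 0.195, and 0.409 in control and 4.16, 3.20, 2.74, and 2.25 in diabetic animals. The lowest diabetic mouse of either genotype thus lay far above the highest control mouse. On the log2 scale the fold change was 2.61 (SE 0.24, adjusted p = 5.04e-06) in WT and 2.89 (SE 0.24, adjusted p = 3.28e-06) in Cfb-/- mice.

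*C5ar1*, the receptor through which C5a attracts and activates myeloid cells, was measured at 0.619, 0.330, and 0.309 FPKM in WT control mice and at 2.71, 2.91, 1.56, and 2.12 in WT diabetic mice. Cfb-/- animals had 0.258, 0.420, and 0.628 as controls and 2.71, 2.47, 1.29, and 1.57 when diabetic. Control and diabetic mice were separate in both genotypes. Its log2 fold change was 2.23 (SE 0.32, adjusted p = 0.000106) in WT and 1.98 (SE 0.32, adjusted p = 0.000301) in Cfb-/- mice.

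*C5ar2* was the scarcest member in control kidneys, at 0.0398, 0.0670, and 0.0623 FPKM in WT control mice and 0.0716, 0.0879, and 0.106 in Cfb-/- control mice. Diabetic mice stood at 0.334, 0.251, 0.164, and 0.269 in WT and 0.310, 0.528, 0.217, and 0.302 in Cfb-/- animals. Diabetic mice were higher without overlap, although all values are low and their counting error is unknown. The log2 fold change of 1.16 in WT (SE 0.24, adjusted p = 0.00177) and 1.18 in Cfb-/- mice (SE 0.24, adjusted p = 0.00195) is reduced by the added 0.1 FPKM, since the means themselves differed 4.52-fold and 3.83-fold. Under quantile normalization the calls were lost, with log2 fold changes of 0.44 (adjusted p = 0.123) and 0.55 (adjusted p = 0.0663).

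*Itgb2*, the beta chain that CR3 and CR4 share with the other leukocyte integrins, had the highest level of the receptor genes. It was at 1.84, 1.78, and 1.60 FPKM in WT control mice and at 6.10, 3.92, 5.84, and 6.06 in WT diabetic mice. Cfb-/- control mice had 1.23, 1.16, and 1.92 and Cfb-/- diabetic mice 6.32, 7.06, 3.57, and 5.17. Again all diabetic mice were above all control mice. Log2 fold changes were 1.58 (SE 0.23, adjusted p = 0.000140) in WT and 1.86 (SE 0.23, adjusted p = 4.70e-05) in Cfb-/- mice.

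*Itgam*, the alpha chain of CR3, was at 0.445, 0.151, and 0.280 FPKM in WT control and 1.64, 1.47, 0.982, and 2.04 in WT diabetic mice. It was at 0.195, 0.179, and 0.284 in Cfb-/- control and 2.18, 1.58, 1.24, and 1.55 in diabetic animals. The groups were separate, with log2 fold changes of 2.09 (SE 0.28, adjusted p = 7.61e-05) in WT and 2.43 (SE 0.28, adjusted p = 2.73e-05) in Cfb-/- mice.

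*Itgax*, the alpha chain of CR4 and a familiar marker of dendritic cells and some macrophages, was the more abundant of the pair. Its level was 0.918, 0.689, and 1.11 FPKM in WT control and 3.06, 1.63, 2.17, and 3.90 in WT diabetic mice. It was 0.602, 0.548, and 0.748 in Cfb-/- control and 2.99, 3.78, 1.95, and 2.32 in Cfb-/- diabetic mice. The groups did not overlap in either genotype. They gave a log2 fold change of 1.42 (SE 0.28, adjusted p = 0.00116) in WT and 1.93 (SE 0.28, adjusted p = 0.000138) in Cfb-/- mice.

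Whether the receptors differed by the same factor was examined with ratios taken within each mouse, and none of the results held under every alternative. In all, 3 such ratios were compared between diabetic and control mice with an exact two-sided permutation test within genotype (1225 assignments). The log2 ratio of *Itgax* to *Itgam* averaged 1.41 ± 0.44 (SD, n = 3) in WT control, 1.20 ± 0.05 (SD, n = 3) in Cfb-/- control, 0.74 ± 0.42 (SD, n = 4) in WT diabetic, and 0.70 ± 0.35 (SD, n = 4) in Cfb-/- diabetic mice. It was lower by 0.58 on the log2 scale in diabetic mice (exact permutation p = 0.0122, 0.0184 adjusted over the 3 ratios), although with 1 FPKM added in place of 0.1 the difference was 0.02 (exact permutation p = 0.868). The log2 ratio of *C5ar1* to *C3ar1* differed by -0.64 over both genotypes (exact permutation p = 0.0261, adjusted 0.0261), with -0.38 in WT and -0.91 in Cfb-/- mice. Diabetic and control mice overlapped in this ratio in each genotype, at -0.67 to 0.37 in WT control and -0.72 to -0.13 in WT diabetic mice, and the difference between the genotypes was not tested. Without the third Cfb-/- diabetic mouse its exact permutation p was 0.0543, without the second Cfb-/- control mouse 0.0629, and without the first WT control mouse 0.0800. The log2 ratio of *C5ar2* to *C5ar1* differed by -0.93 (exact permutation p = 0.000816, adjusted 0.00245, the smallest p these assignments allow), but by -0.46 (exact permutation p = 0.0996) with 0.01 FPKM added, so the size of this difference rests on the constant added to a gene near the floor.

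Among the alpha chains that pair with *Itgb2*, *Itgax* had the largest share of the summed FPKM in every group. The share of *Itgax* in the sum of *Itgal*, *Itgam*, *Itgax*, and *Itgad* had medians of 48.9% in WT control, 50.3% in Cfb-/- control, 44.8% in WT diabetic, and 47.1% in Cfb-/- diabetic mice. *Itgam* made up 10.7% to 21.1% in WT control and 19.7% to 36.9% in WT diabetic mice, which overlap. In Cfb-/- mice it made up 16.3% to 17.3% in control and 21.2% to 33.4% in diabetic animals, which do not. *Itgal*, the alpha chain of LFA-1, made up medians of 35.2%, 33.4%, 25.7%, and 23.9% in the same order of groups, and *Itgad* at most 0.723%.

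The membrane regulators differed less with diabetes than the receptors. *Cr1l* was at 25.3, 19.9, and 21.9 FPKM in WT control mice and 24.0, 25.1, 23.3, and 22.7 in WT diabetic mice. Cfb-/- control mice had 22.0, 18.2, and 23.7 and Cfb-/- diabetic mice 23.8, 22.3, 23.7, and 24.4. The groups overlapped throughout. The log2 fold change with diabetes was 0.09 (95% interval -0.13 to 0.32, adjusted p = 0.479) in WT and 0.15 (-0.07 to 0.38, adjusted p = 0.280) in Cfb-/- mice, and it was -0.19 and -0.09 after median-ratio scaling.

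*Cd59a* was at 9.12, 11.2, and 9.55 FPKM in WT control and 13.98, 20.7, 14.4, and 19.5 in WT diabetic mice, without overlap. In Cfb-/- mice it was at 10.1, 8.86, and 14.2 in control and 20.6, 15.8, 13.7, and 15.7 in diabetic animals, where the highest control mouse lay above the lowest diabetic mouse. For *Cd59a* the log2 fold change was 0.76 (SE 0.18, adjusted p = 0.00446) in WT and 0.58 (SE 0.18, adjusted p = 0.0244) in Cfb-/- mice. The call in Cfb-/- mice was lost after median-ratio scaling (0.34, adjusted p = 0.166) and quantile normalization (0.44, adjusted p = 0.0720). It was also lost without the first Cfb-/- diabetic mouse (0.47, adjusted p = 0.0796), the first Cfb-/- control mouse (0.53, adjusted p = 0.0834), or the second Cfb-/- control mouse (0.44, adjusted p = 0.127).

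*Cd55* was at 1.20, 1.01, and 0.961 FPKM in WT control mice and at 1.97, 1.32, 1.54, and 2.45 in WT diabetic mice, without overlap. In Cfb-/- mice it was at 1.63, 1.51, and 1.74 in control and 2.27, 1.88, 1.71, and 1.54 in diabetic animals, which overlap. The Cfb-/- control mice thus lay above every WT control mouse and within the range of the diabetic mice. The log2 fold change with diabetes was 0.70 (SE 0.20, adjusted p = 0.0108) in WT and 0.16 (95% interval -0.26 to 0.59, adjusted p = 0.551) in Cfb-/- mice. The difference between these fold changes, -0.54, did not pass the interaction test (SE 0.28, unadjusted p = 0.0749, adjusted p = 0.779), so a different response of *Cd55* in the genotypes is not shown. After median-ratio scaling the WT value was 0.44 (adjusted p = 0.0554) and after quantile normalization 0.07 (adjusted p = 0.756), and the Cfb-/- value turned to -0.07 and -0.36.

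*Cd46* was low and scattered, at 0.260, 0.119, and 0.403 FPKM in WT control and 0.327, 0.150, 0.251, and 0.502 in WT diabetic mice. Cfb-/- control mice had 0.394, 0.198, and 0.160 and Cfb-/- diabetic mice 0.452, 0.377, 0.352, and 0.201. The spread within each group was as wide as the distance between groups. Log2 fold changes with diabetes were 0.19 (95% interval -0.56 to 0.94) in WT and 0.37 (-0.38 to 1.12) in Cfb-/- mice, and quantile normalization turned both, to -0.58 and -0.33.

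The remaining question was whether the members differed between Cfb-/- and WT mice of the same treatment. Among diabetic mice 0 of the 10 were called by limma, beside 0.00671% of all genes, which is *Cfb* alone. The study's own count test, at its unadjusted cut-offs, called further genes between these groups. At an unadjusted p under 0.05 there were also 0 of 10, beside 3.0% of all genes, and the groups overlapped for each of the 10 (1.86% of all genes were higher and 0.885% lower without overlap). The log2 fold changes of Cfb-/- over WT diabetic mice ran from -0.22 (*C5ar1*) to 0.29 (*C5ar2*), with a median of 0.02. *C5ar1* was at a mean of 2.01 ± 0.69 FPKM (SD, n = 4) in Cfb-/- diabetic and 2.32 ± 0.61 (SD, n = 4) in WT diabetic mice, a log2 difference with a 95% interval of -0.85 to 0.40. By staining of C5aR protein, the study reported significantly lower levels in the tubulointerstitium of Cfb-/- than of WT diabetic mice. It found no significant difference in glomeruli. Staining and tissue RNA are unlike measures and were not compared here. For *C3ar1* the interval was -0.62 to 0.34 and for *Itgam* -0.45 to 0.67. The interval was narrowest for *Cr1l*, from -0.22 to 0.19, and widest for *Cd46*, from -0.53 to 0.86. Differences inside these intervals remain compatible with the values of 4 mice against 4.

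Among control mice 0 of the 10 were called by limma, again beside 0.00671% of all genes, and 1 had an unadjusted p under 0.05, beside 17.5% of all genes. That gene was *Cd55*, with 1.63 ± 0.11 FPKM (SD, n = 3) in Cfb-/- control and 1.06 ± 0.12 (SD, n = 3) in WT control mice and a log2 fold change of 0.58 (SE 0.21, unadjusted p = 0.0154, adjusted p = 0.249). *Cd55* and *C5ar2* were higher in Cfb-/- control mice without overlap and 0 members were lower, beside 6.67% and 7.12% of all genes. The *C5ar2* values are those near the floor given above, and their log2 fold change was 0.27 (adjusted p = 0.584). The 3 integrin chains and *C3ar1* had negative values, from -0.24 (*Itgam*) to -0.45 (*Itgax*), none past the test. In the interaction of genotype with diabetes 0 of the 10 passed by limma, as did 0% of all genes, and 0 of 10 had an unadjusted p under 0.05, beside 5.77% of all genes. The smallest adjusted p among the members was that of *Cd55*.

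**Figure D3:**
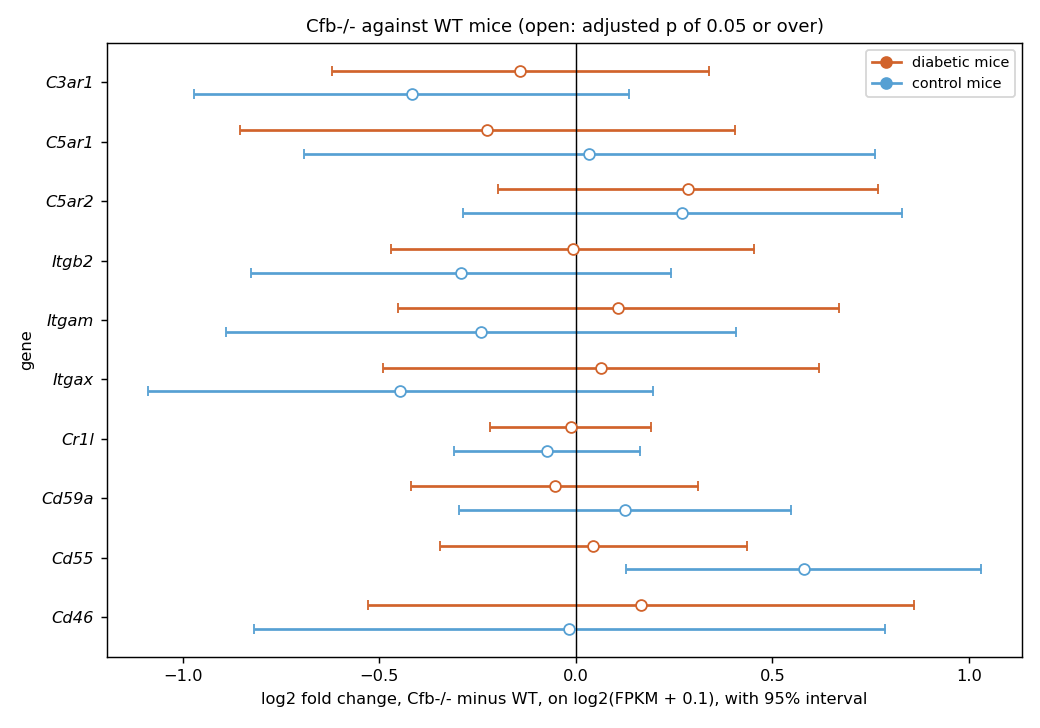
Log2 fold change of Cfb-/- over WT mice with its 95% interval for the 10 genes, in diabetic mice (orange) and control mice (blue), all with open points because none reached an adjusted p under 0.05. The intervals of diabetic mice all include 0, and among control mice only that of *Cd55* (0.13 to 1.03) does not.

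The receptors were higher in mice in which most leukocyte marker lists were higher as well, that of neutrophils excepted. All 5 pan-leukocyte markers were called higher with diabetes in both genotypes, and *Ptprc* (CD45) ranged over 1.14 to 1.89 FPKM in WT control and 3.61 to 6.12 in WT diabetic animals. Of 15 macrophage and monocyte markers, 14 were called higher in WT and 13 in Cfb-/- mice. Their summed level was 84.7 to 98.4 FPKM in WT control, 70.1 to 108 in Cfb-/- control, 296 to 430 in WT diabetic, and 260 to 460 in Cfb-/- diabetic mice. Of the 9 neutrophil markers only 4 could be tested, with 1 called higher in WT mice and 1 higher and 1 lower in Cfb-/- mice. The neutrophil-defining *Ly6g* was at 0 in 13 of 14 mice, and the summed neutrophil level was 1.59 to 6.51 FPKM in WT diabetic and 2.12 to 4.58 in WT control mice. Dendritic cells, for which *Itgax* is also a marker, had 4 of 6 tested markers called higher in WT and 6 of 6 in Cfb-/- mice, with sums of 2.30 to 4.49 FPKM in WT control and 5.11 to 7.48 in WT diabetic animals. T and NK cell markers were called higher in 5 of 9 in WT and 7 of 9 in Cfb-/- mice, and B and plasma cell markers in 4 of 5 tested and 2 of 5. Of all genes tested, 36.2% were called higher in WT and 27.4% in Cfb-/- mice. In the same order, podocyte markers were called higher in 2 of 5 and 5 of 5 and endothelium markers in 3 of 6 and 4 of 6. Collecting duct markers were called higher in 3 of 6 and 0 of 6, and loop and distal tubule markers in 1 of 5 in each genotype. All 5 stroma markers were called higher in both genotypes, while urothelium markers were called higher in 6 of 6 in WT and 0 of 6 in Cfb-/- mice. The urothelium sum ranged over 0.690 to 46.3 FPKM in WT diabetic and 1.22 to 3.15 in Cfb-/- diabetic animals. Among controls it ranged over 0.279 to 0.643 in WT and 0.607 to 8.89 in Cfb-/- animals. Adipocyte markers, *Cfd* of the complement list among them, were called higher in 5 of 5 tested in WT and 1 of 5 in Cfb-/- mice. Of the urothelium and adipocyte markers 0 were called between genotypes or in the interaction. All 6 markers of injured tubule were called higher in both genotypes, and their sum was nearly *Spp1* alone, at 229 to 243 FPKM in WT control and 1406 to 2250 in WT diabetic mice. Of 7 proximal tubule markers 5 were called lower in WT and 6 in Cfb-/- mice, and their sum was nearly *Kap* alone, at 41536 to 67836 and 9698 to 16015 FPKM in the same WT groups, whereas *Cubn* had means of 28.6 and 31.4. The part of these cell types in the results above was not tested.

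Set against *Ptprc* in the same mouse, a comparison added after the values had been seen and given without a test, the members fell into different patterns. The log2 ratio of *Itgb2* to *Ptprc* had group means near 0, at 0.19 in WT control, -0.13 in Cfb-/- control, 0.07 in WT diabetic, and -0.0031 in Cfb-/- diabetic mice. Its values in WT control mice ran from -0.23 to 0.61. The ratio of *C3ar1* was higher in diabetic mice without overlap, at -1.63 to -1.34 in WT control against -0.97 to -0.17 in WT diabetic mice, and at -2.28 to -1.69 against -1.08 to -0.47 in Cfb-/- mice. That of *C5ar1* overlapped, at -2.28 to -1.25 in WT control and -1.69 to -0.30 in WT diabetic mice. The ratio of *Cr1l* was lower in diabetic mice, at 3.47 to 4.01 in WT control and 1.91 to 2.76 in WT diabetic mice. That of *Cd55* was lower as well, at -0.91 to -0.15 and -1.71 to -1.24, and so was that of *Cd46*. In Cfb-/- mice *Cd59a* (2.64 to 2.89 against 1.19 to 1.81) was lower with diabetes without overlap. In WT mice it was lower in mean but overlapped. With 0.1 FPKM added to each gene, the ratio of *C5ar2* was lower too, at -3.22 to -2.93 against -3.85 to -3.47 in Cfb-/- mice. In WT mice that ratio was lower in mean but overlapped. *C5ar2* itself was at 0.0398 to 0.106 FPKM in control mice, so its ratio rests on the added constant and shows no direction. The mean of *Itgam* was higher with diabetes in both genotypes, and that of *Itgax* was lower in WT and higher in Cfb-/- mice. The level of *Cr1l* itself, given above, overlapped between diabetic and control mice. Those of *Cd55* in WT and of *Cd59a* in both genotypes were called higher with diabetes.

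**Figure D4:**
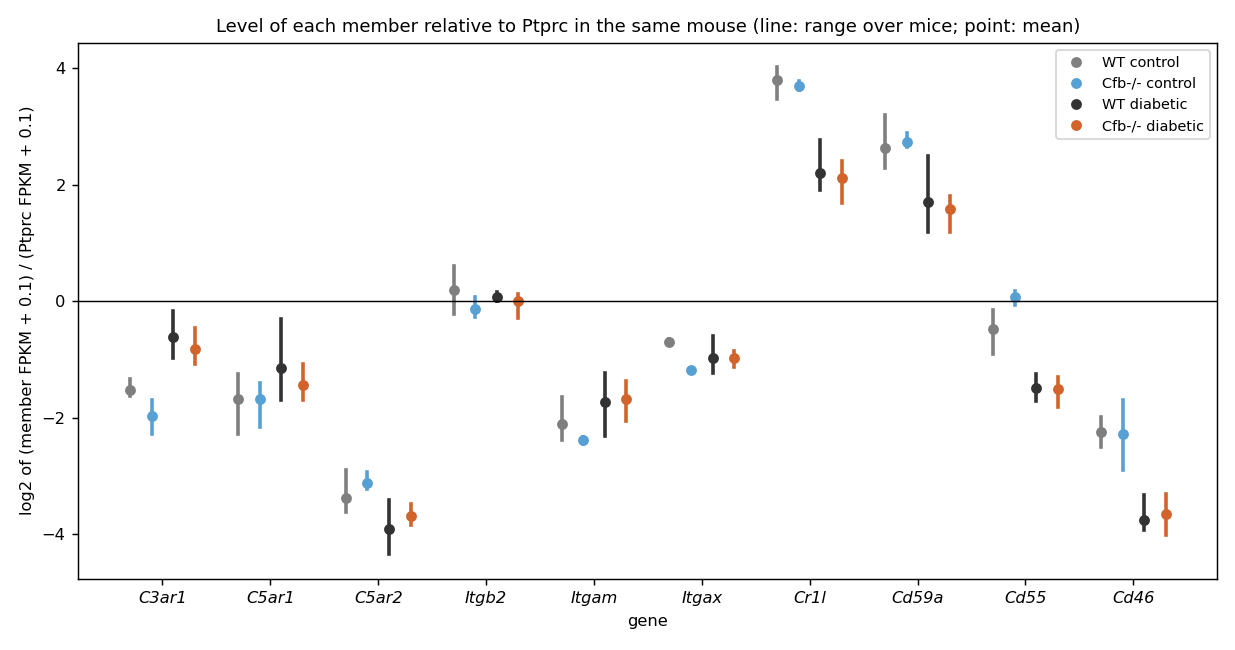
Log2 of the FPKM of each gene over that of *Ptprc* in the same mouse, each with 0.1 added, as the range (line) and mean (point) over the mice of each group. The mean of *Itgb2* stays near 0 in every group, *C3ar1* is higher in diabetic mice, and *Cr1l*, *Cd55*, and *Cd46* are lower relative to *Ptprc*. *Cd59a* and *C5ar2* are lower in mean as well, with overlap in WT mice. The ratio of *C5ar2* rests on the added constant and shows no direction.

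Genes with a similar pattern over the 14 mice were sought among the 11396 genes with a mean of at least 1 FPKM, by Pearson r on the log2 scale, as a description in which the difference between diabetic and control mice weighs most. Among those most like *C3ar1* were *Hfe* (r = 0.988, n = 14) and *Nckap1l* (0.986). *C5ar1* was most like *Ms4a6d* (0.976), *Ccl12* (0.971), and *Tlr13* (0.970). *Itgb2* was most like *Pltp* (0.992) and *Itgax* most like *Il2rg* (0.987) and *Ccr2* (0.985), the receptor of monocyte chemoattractants. *Itgam* was most like *Sept2* (0.988) and *C5ar2* most like *Cx3cl1* (0.974). Nearest to the regulators were *Bcam* for *Cd59a* (0.972), *Tacc2* for *Cr1l* (0.927), *Mapkbp1* for *Cd55* (0.905), and *Zfp512b* for *Cd46* (0.958).

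The ligands and the rest of the pathway give the setting in which these receptors were measured. *C3*, the source of C3a and of the fragments held by CR3 and CR4, was at 1.64 to 2.19 FPKM in WT control and 33.7 to 44.8 in WT diabetic mice (log2 fold change 4.23, SE 0.20, adjusted p = 1.37e-08). *Hc*, which encodes C5, did not exceed 0.108 FPKM in any mouse. Of 27 complement components 23 could be tested, of which 14 were called higher and 4 lower in WT mice and 15 higher and 3 lower in Cfb-/- mice, *Cfb* itself among the lower in the latter. Of all genes tested, 36.2% were called higher and 9.97% lower in WT mice, and 27.4% and 6.40% in Cfb-/- mice.

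Of 20 other complement receptors and regulators 14 could be tested, and 10 were called higher and 1 lower in WT mice and 10 higher and 0 lower in Cfb-/- mice. Beside these counts and those below stand the 36.2% and 27.4% of all genes called higher in WT and Cfb-/- mice. Higher were *Serping1*, the inhibitor of C1 (1.75 in WT and 1.70 in Cfb-/- mice on the log2 scale), and *Clu*, which binds the terminal complex (1.47 and 1.58). *C1qbp* was lower in WT mice (-0.38, adjusted p = 0.0115). Complement receptor 2 (*Cr2*), a B cell receptor, was at 0.104 to 0.235 FPKM over all mice, and *Vsig4*, a receptor of resident macrophages, did not exceed 0.0913. Of 9 tested leukocyte integrins and partners, 7 were called higher in WT and 8 in Cfb-/- mice, among them *Fermt3*, which activates leukocyte integrins (1.42 and 1.64), and *Icam1*, a ligand of CR3 (1.21 and 1.43). The 5 tested receptors for other chemoattractants were all called higher in both genotypes, with *Ptafr* at 1.80 and 2.05.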

How the data were processed

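Kidney mRNA libraries of 14 mice were made with a stranded kit, read from both ends, and grouped by sample title. The submitters' processing notes name Trimmomatic, HISAT2, Cufflinks, HTSeq, DESeq, and the build GRCm38.p6, without versions or settings. The authors deposited one value per gene and mouse, read here as FPKM because the values are not whole and step with transcript length, and how multiply mapped reads were counted is not given in the sources used here. Read depth is unknown, so no count test was possible and precision rests on the spread between mice.

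In R 4.3.3, limma 3.58.1 with a mean-variance trend was fitted to log2(FPKM + 0.1) of all 14 mice, with a mean per group, for the 14912 genes that reached 0.1 FPKM in 3 or more mice. All 10 members passed this filter. Ratios of members were compared with exact permutation tests, and the fit was tested on simulated data. Tables and figures were made in Python 3.11.15 with numpy 2.4.6, pandas 2.3.3, and matplotlib 3.10.9. The members, lists, and tests were chosen with earlier results of these data known. Genes named are the members, *Cfb*, called genes of the pathway lists (at most the 4 largest per list and direction), list or marker genes at 0 or left untested, and the most similar genes of each member, of which 1 is not reported here. *Ptprc*, *C3*, *Hc*, *Cr2*, *Vsig4*, *Cd59b*, *Itgal*, *Itgad*, *Cubn*, *Spp1*, *Kap*, and the kidney markers were added with their values seen. Alternatives were pseudocounts of 1 and 0.01, no filter, a filter at 1 FPKM, median-ratio and quantile scaling, a fit of only the groups compared, a block for the replicate number, the study's criteria, and leaving out each mouse.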

Additional observations from a re-analysis of the deposited data

Results flagged for a closer look

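*Itgb2* in WT diabetic mice was marked because its lowest mouse, the second, stood at 3.92 FPKM while the other three lay between 5.84 and 6.10, a gap wider than Dixon's 95% criterion allows for 4 values. The same mouse had the lowest *Itgax* (1.63 FPKM) and *Ptprc* (3.61 FPKM) of its group and the highest *C5ar1* (2.91 FPKM) and *Cd59a* (20.7 FPKM). Without it the log2 fold change of *Itgb2* with diabetes in WT mice was 1.73, against 1.58 with all mice and 1.52 to 1.62 on leaving out any other mouse of the comparison, so this mouse moved the value most. Of 20 sets of 4 mice examined 1 was marked, and chance marks about 1 in 20.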

How the results depend on the processing

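The members called with diabetes numbered 6 to 8 in WT and 5 to 7 in Cfb-/- mice over all alternatives, with the lowest counts under quantile normalization, and genotype and interaction counts stayed at 0. Leaving out 1 mouse gave 8 in WT and 6 to 7 in Cfb-/- mice. Of 799 alternatives for single genes, 733 kept the direction and the side of the threshold, 10 lost the call, and 56 reversed, each of them a value that had not passed the test. *C5ar2* and *Cd46* have no value with the filter at 1 FPKM.

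Median-ratio scaling reversed the log2 fold change with diabetes of *Cd46* in WT (-0.0050), *Cr1l* in WT (-0.188) and Cfb-/- (-0.0903), and *Cd55* in Cfb-/- mice (-0.0672). Quantile normalization reversed *Cd46* in WT (-0.58) and Cfb-/- (-0.33) and *Cd55* in Cfb-/- mice (-0.36). Between genotypes in diabetic mice, *Cd55* turned to -0.0068 and -0.0232 under the same scalings and *Itgax* to -0.0077 under quantile normalization. In control mice *C5ar1* turned to -0.0383 and -0.0975. With 0.01 FPKM added, the interaction of *C5ar2* was -0.21 and the ratio of *C5ar2* to *C5ar1* was -0.46 (exact permutation p = 0.0996). With 1 FPKM added, the ratio of *Itgax* to *Itgam* was 0.0174. The causes were not tested.

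Leaving out 1 mouse at a time, the log2 fold change of *Cd46* with diabetes in WT ran from -0.13 to 0.47 and the ratio of *C5ar1* to *C3ar1* from -0.83 to -0.51. Genotype values in diabetic mice ran from -0.0896 to 0.19 (*Cd55*), -0.0444 to 0.38 (*Cd46*), -0.17 to 0.0425 (*Cd59a*), -0.0362 to 0.0134 (*Cr1l*), -0.0757 to 0.25 (*Itgam*), -0.14 to 0.26 (*Itgax*), and -0.16 to 0.18 (*Itgb2*). In control mice they ran from -0.22 to 0.29 (*C5ar1*), -0.34 to 0.26 (*Cd46*), -0.0692 to 0.27 (*Cd59a*), -0.15 to 0.0345 (*Cr1l*), and -0.53 to 0.0327 (*Itgam*). Interactions ran from -0.17 to 0.16 (*C5ar2*), -0.0973 to 0.50 (*Cd46*), -0.32 to 0.0151 (*Cd59a*), and -0.0480 to 0.14 (*Cr1l*).

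Replicate numbers name separate mice, and the deviations of same-numbered mice correlated at -0.39 to 0.24, so they were not taken as pairs. With the replicate block the members called were 8 in WT and 6 in Cfb-/- mice, where *Cd59a* had 0.56 (adjusted p = 0.0698).

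With 3 or 4 mice a group and unknown depth, small differences could have been missed. Differences within the intervals given between genotypes remain compatible with the values. The constant added before taking logs set the size of the fold changes of scarce receptors, as for *C5ar2* in WT mice (0.25 with 1 FPKM and 1.98 with 0.01) and *Itgam* (0.96 and 2.43). FPKM were used as deposited, and under at least 1 of the other scalings the calls of *C5ar2*, of *Cd55* in WT, and of *Cd59a* in Cfb-/- mice were lost.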
